A study of Mus musculus with 6 samples.

Results

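The casein genes of the mouse, Csn1s1, Csn2, Csn1s2a, Csn1s2b and Csn3, were taken as the 5 rows with these symbols among the 18537 gene clusters of the series, and all 5 were followed through all 6 libraries. RNA came from luminal progenitor cells, sorted as Lin-, CD24lo, CD29+ and CD61+ from mammary glands of adult nulliparous littermates of Robo1+/- crosses. Robo1, a receptor of the SLIT ligands, was intact in the 3 Robo1+/+ libraries (gh03, gh09 and gh15). It was disrupted in every cell of the animal by the tm1Matl allele in the 3 Robo1-/- libraries (gh06, gh12 and gh18), so that a difference need not arise in the progenitors themselves. Each library pooled 2 animals, of 10 to 12 weeks of age, and their stage of the estrous cycle is not given in the sources used here.

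Caseins are the main proteins of milk. The calcium-sensitive caseins, which Csn1s1 (alpha-S1), Csn2 (beta), Csn1s2a and Csn1s2b (alpha-S2-like) encode, bind calcium phosphate through phosphorylated serines, and kappa-casein, encoded by Csn3, coats the micelle and keeps it in solution. The calcium-sensitive genes descend from a common ancestor, whereas Csn3 has another origin and lies at the end of the cluster. Prolactin acting through STAT5, with glucocorticoids and C/EBP-beta, raises casein transcription in pregnancy and lactation, and luminal progenitors of virgin glands already carry some casein mRNA.

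On NCBI37/mm9 the 5 genes lie on chromosome 5 and span 266.4 kb. Csn1s1 extends from 88095249 to 88111598 on the plus strand. Csn2 follows from 88121647 to 88128446, the only casein gene on the minus strand, 10048 bases after the end of Csn1s1. Csn1s2a (88203592 to 88217822) and Csn1s2b (88237107 to 88253451) are 19.3 kb apart on the plus strand, and Csn3 (88354604 to 88361690) begins 101.2 kb beyond them. None of the 75-base sequences of the coding transcripts of these genes, the length to which the reads were trimmed, occurred in coding transcripts of another gene.

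Promoter sequences of RefSeq (GRCm38.p6) were held for Csn1s1, Csn2 and Csn1s2a, and are shown because the levels of these genes varied together over the libraries. Csn1s2b and Csn3 had no entry. The windows end at the RefSeq start, except that of Csn1s2a, which runs 30 bases past it, since the start that GENCODE M1 gives for this gene lies 117 bases further downstream. On GRCm38.p6 they are chr5:87665958-87666207 (plus strand), chr5:87699426-87699675 (minus strand) and chr5:87774200-87774479 (plus strand). Exact matches place them at 88094983 to 88095232, 88128451 to 88128700 and 88203225 to 88203504 of chromosome 5 on NCBI37. Each is written 5′ to 3′, with matches to TTCNNNGAA, the palindrome that STAT proteins recognise, in capitals.
Csn1s1: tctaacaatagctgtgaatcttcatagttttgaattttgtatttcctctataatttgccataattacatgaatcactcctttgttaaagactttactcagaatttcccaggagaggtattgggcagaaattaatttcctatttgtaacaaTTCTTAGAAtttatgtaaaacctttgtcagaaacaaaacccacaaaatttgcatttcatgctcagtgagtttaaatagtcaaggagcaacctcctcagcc
Csn2: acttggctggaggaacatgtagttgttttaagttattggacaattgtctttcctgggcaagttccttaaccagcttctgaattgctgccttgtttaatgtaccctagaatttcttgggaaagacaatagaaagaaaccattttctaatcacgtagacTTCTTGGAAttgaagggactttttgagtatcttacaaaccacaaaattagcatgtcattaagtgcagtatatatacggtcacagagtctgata
Csn1s2a: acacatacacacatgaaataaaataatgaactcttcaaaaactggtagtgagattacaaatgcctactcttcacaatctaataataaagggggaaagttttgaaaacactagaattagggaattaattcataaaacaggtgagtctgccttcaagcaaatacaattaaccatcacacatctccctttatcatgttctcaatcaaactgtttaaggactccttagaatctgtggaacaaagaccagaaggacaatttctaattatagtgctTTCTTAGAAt
The 3 promoters each held 1 match to this motif, starting 116 bases before the GENCODE M1 start of Csn1s1 and 97 bases before that of Csn2 and of Csn1s2a. By the RefSeq starts, on which the search rested, the matches of Csn1s1 and Csn2 began 100 and 93 bases upstream. That of Csn1s2a lay downstream, beginning at base 21 of the RefSeq transcript. Over the full windows from 250 bases before to 50 after the RefSeq start, searched on both strands, 8.3% of all 32851 promoters held this motif. TTNNGNAA, a loose form of the C/EBP site, matched in all 3 and in 40.7% of all promoters, and GGAA, the core of ETS sites, matched in all 3 and in 96.0%. TGTTCT, a partial site of the glucocorticoid receptor, matched in Csn1s2a (19.0% of all promoters), and TGGCA, a partial site of NF1, in Csn1s1 (48.9%). TATAAA was found in none of the 3 windows, against 13.6% of all promoters. The GGAA matches of Csn2 include 1 that lies within its TTCNNNGAA match. These matches describe letters and not occupied sites.

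The values analysed are normalized read counts, that is, reads per gene divided by a size factor of the library, and the libraries held between 9727191 and 17433868 reads. Robo1 itself was at 289, 574 and 541 in Robo1+/+ and at 130, 214 and 177 in Robo1-/-, lower without overlap. Its log2 fold change was -1.39 (SE 0.36, limma unadjusted p = 0.0062), with an adjusted p of 0.86 over all genes tested. The disrupted gene itself thus did not pass the adjustment. The progenitor markers Kit, Itgb3 (which encodes CD61), Elf5, Aldh1a3, Cd14, Krt8, Krt18, Ehf and Cd24a were all expressed. Their summed level was between 95660 and 107300 in Robo1+/+ and between 68100 and 121000 in Robo1-/-, lowest in gh18. Abundant members weigh most in this sum: Krt8 was at 11182 in gh18 and between 35984 and 43715 in the other libraries. Kit and Itgb3, at 5038 and 751.5 in gh18, lay within the range of the other libraries. Replicate gh18 stood apart by base composition. Across 12526 tested genes a gene's deviation in gh18 was lower the higher its GC content (rho = -0.81 by Spearman's method, over genes, which are not independent replicates), whereas this rho was between 0.17 and 0.61 in the other 5 libraries. Genes with a GC content within the range of the caseins (35.0% to 43.7%) had a median deviation of 0.86 on the log2 scale in gh18, so the casein values of gh18 are also given after a GC correction or without that library.

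The casein genes took a small share of all reads, and that share varied several-fold within each genotype, with overlapping ranges. They gave 0.326% of the reads in gh03 (95% Wilson interval 0.3224% to 0.3293%), 0.0896% in gh09 (0.08819% to 0.09099%) and 0.146% in gh15 (0.1444% to 0.1484%). In Robo1-/- they gave 0.106% in gh06 (0.1043% to 0.108%), 0.159% in gh12 (0.1573% to 0.1614%) and 0.273% in gh18 (0.2699% to 0.2765%). The highest share of each genotype, in gh03 and gh18, was above all 4 other libraries. With GC-corrected values, an alternative added after seeing the data, the normalized read counts of the 5 caseins summed to 47450 in gh03, 14190 in gh09 and 21640 in gh15 and to 17300 in gh06, 22420 in gh12 and 23860 in gh18, so that gh03 alone stood out and gh18 was close to gh12 and gh15. Csn3 made up 17.8%, 66.3% and 49.8% of the casein reads in gh03, gh09 and gh15 and 76.4%, 86.4% and 43.0% in gh06, gh12 and gh18. It was thus the largest component in 5 of the 6 libraries, and in gh03 it ranked behind Csn1s1 (42.0%) and Csn2 (31.5%). After the GC correction Csn3 also came behind Csn1s1 in gh18, at 9154 against 10100 normalized read counts. In bulk RNA, fewer cells with a transcript and less transcript per cell cannot be told apart.

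Levels can be compared between the genes only per length. Per kb of the first-numbered coding transcript (1415 bases for Csn1s1, 1122 for Csn2, 920 for Csn1s2a, 810 for Csn1s2b and 991 for Csn3), Csn3 was at 8626 ± 1084 normalized read counts in Robo1+/+ and 15870 ± 4005 in Robo1-/- (mean ± SD, n = 3 libraries). Csn1s1 was at 6328 ± 5863 and 4648 ± 5120, Csn2 at 5250 ± 6075 and 1911 ± 2561, and Csn1s2a at 1869 ± 1929 and 880.7 ± 814.6. Csn1s2b was lowest in every library, at 15.08 ± 10.64 and 14.74 ± 13.81 per kb. The order of neighbouring genes was not fixed: Csn3 led in 5 of 6 libraries and came after Csn1s1 and Csn2 in gh03, and Csn2 came before Csn1s2a in all libraries but gh12. With the longest Csn3 transcript (1596 bases), Csn1s1 also led in gh18, at 10560 against 10440 per kb.

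**Figure D1:**
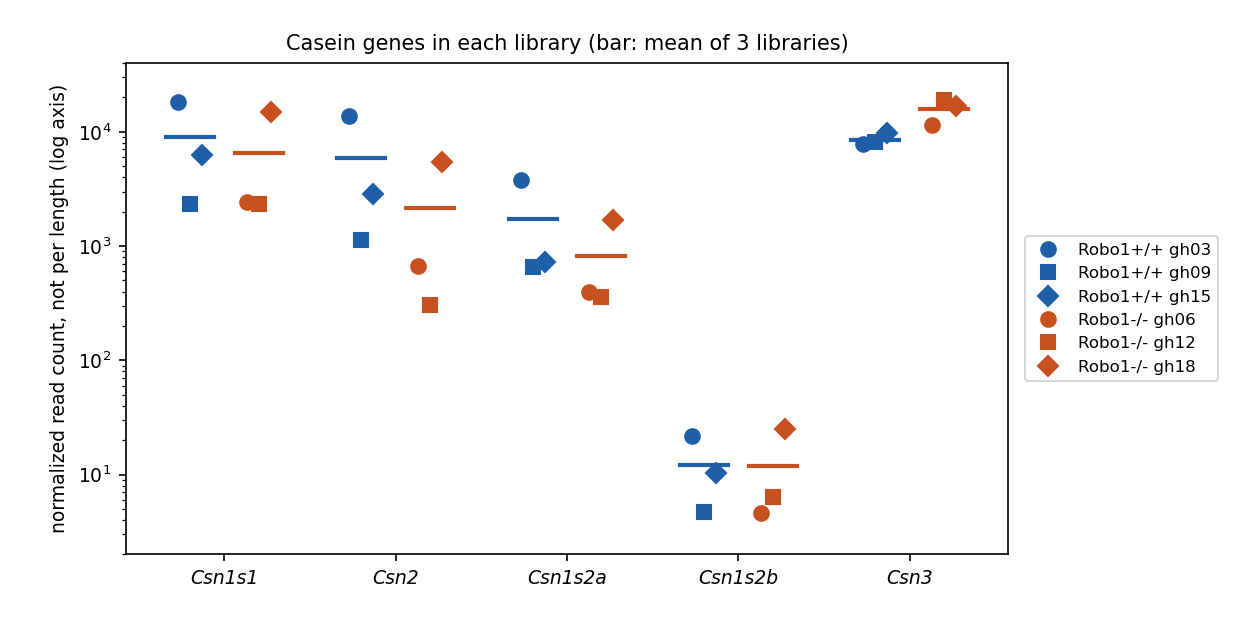
Normalized read count (log axis, not divided by length) of the 5 casein genes in the 3 Robo1+/+ (blue) and 3 Robo1-/- (orange) libraries, with marker shapes for libraries and bars for means of 3. The first 4 genes were highest in gh03 and gh18 and overlapped between genotypes, and Csn3 lay between 7754.6 and 9771 in Robo1+/+ and between 11376 and 19142 in Robo1-/-.

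Of the 5 genes, Csn3 alone did not overlap between genotypes. Its normalized read count was 7754.6, 8119 and 9771 in gh03, gh09 and gh15 and 11376, 19142 and 16669 in gh06, gh12 and gh18. All 3 Robo1-/- libraries were above all 3 Robo1+/+ libraries, and the spread was narrow: the highest value was 1.26 times the lowest in Robo1+/+ and 1.68 times in Robo1-/-. The log2 fold change was 0.85 (SE 0.25, limma unadjusted p = 0.012), with an adjusted p of 0.86 over all 13692 genes tested. Values without overlap were seen in 9.41% of all genes tested, and an unadjusted p under 0.05 in 1.69% (231 genes). No gene of the table had an adjusted p under 0.05 with limma (0%), against 0 with edgeR (221 at an unadjusted p under 0.05) and 1 with DESeq2 (335). The adjusted p of Csn3 was between 0.55 and 1.0 over the alternatives.

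The size of the Csn3 difference depended on the treatment of gh18. After the GC correction the log2 fold change was 0.46 (limma unadjusted p = 0.14), and the genotypes overlapped, because Csn3, at a GC content of 37.4%, moved in gh18 to 13.16 on the log2 scale, against 13.10 to 13.41 in Robo1+/+. Without gh18 it was 0.79 (limma unadjusted p = 0.018), and with both the correction and gh18 left out, an alternative chosen after seeing the data, it was 0.73 (limma unadjusted p = 0.013). The summed level of 8 mature luminal markers (Esr1, Pgr, Prlr, Foxa1, Ly6a, Cited1, Areg and Tnfsf11) was also apart between genotypes, without a GC correction. It was between 45880 and 56940 in Robo1+/+ and between 58460 and 68730 in Robo1-/-. Its members did not all move alike: Pgr averaged 2706 in Robo1+/+ and 4452 in Robo1-/-, and Tnfsf11 661.1 and 182.8. Of all single genes tested, 9.41% were without overlap. The part of these markers in the Csn3 difference was not tested.

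Csn1s1 varied widely within each genotype. Its normalized read count was 18257, 2317 and 6291 in gh03, gh09 and gh15 and 2432, 2355 and 14946 in gh06, gh12 and gh18. The genotypes overlapped almost completely, with gh03 and gh18 the high libraries. The highest library was 7.88 times the lowest. The log2 fold change was -0.55 (SE 0.95, limma unadjusted p = 0.58; adjusted p = 0.88), and it turned to 0.21 without gh03. Without gh18 it was -1.43 (limma unadjusted p = 0.11), without gh09 it was -1.28, without gh06 and gh12 it was -0.12 and -0.09, and after the GC correction it was -0.8 (limma unadjusted p = 0.36). The SD of log2 values over the 6 libraries was 1.38, exceeded by 4.53% of the genes tested.

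Csn2 had the widest range of the caseins. It was at 13697, 1139 and 2832 in Robo1+/+ and at 674.4, 303.2 and 5456 in Robo1-/-. The lowest 2 values were Robo1-/- libraries and the highest was a Robo1+/+ library, but gh18 exceeded gh09 and gh15. Between gh12 and gh03 the level differed 45.2-fold, and 0.803% of the genes tested had a larger SD than its 2.03 on the log2 scale. The log2 fold change was -1.77 (SE 1.24, limma unadjusted p = 0.2; adjusted p = 0.86). After the GC correction it was -2.05 (limma unadjusted p = 0.1). Without gh18 it was -2.96 (limma unadjusted p = 0.02), without gh03 it was -0.79 and without gh12 it was -0.88 (limma unadjusted p = 0.54 and 0.5). The difference of Csn2 was thus below the spread between libraries, and its size rested on single libraries of both genotypes. The paper names Csn2 and Csn1s1 among the genes lower in Robo1-/- luminal progenitors, in a plot of significantly altered mRNAs. With DESeq2 the log2 fold change here was -1.45 for Csn2 and -0.44 for Csn1s1 (DESeq2 unadjusted p = 0.3 and 0.6). The direction was thus the same, but neither gene was set apart from the spread between libraries.

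Csn1s2a, which encodes an alpha-S2-like casein, was at 3769, 660.7 and 728.9 in gh03, gh09 and gh15 and at 398.2, 357.3 and 1675 in gh06, gh12 and gh18. Here too gh03 and gh18 were highest, and gh18 was above gh09 and gh15. The log2 fold change was -0.97 (SE 0.84, limma unadjusted p = 0.28; adjusted p = 0.86). It was -0.16 without gh03, -1.69 without gh18 and -1.25 after the GC correction (limma unadjusted p = 0.83, 0.055 and 0.12).

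Csn1s2b, its neighbour in the cluster, was close to the limit of detection. It was covered by 17, 6 and 11 reads in Robo1+/+ and by 4, 7 and 17 in Robo1-/-, for normalized read counts of 21.63, 4.7 and 10.32 and of 4.6, 6.41 and 24.81. An exact 95% Poisson interval, which covers counting error only, ran from 1.09 to 10.2 for 4 reads and from 9.9 to 27.2 for 17 reads. The log2 fold change was -0.15 (SE 0.77, limma unadjusted p = 0.85; adjusted p = 0.96), and it turned to 0.35, 0.29 and 0.08 without gh03, gh06 and gh12. Without gh18 it was -0.82 and after the GC correction -0.6 (limma unadjusted p = 0.27 and 0.35).

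**Figure D2:**
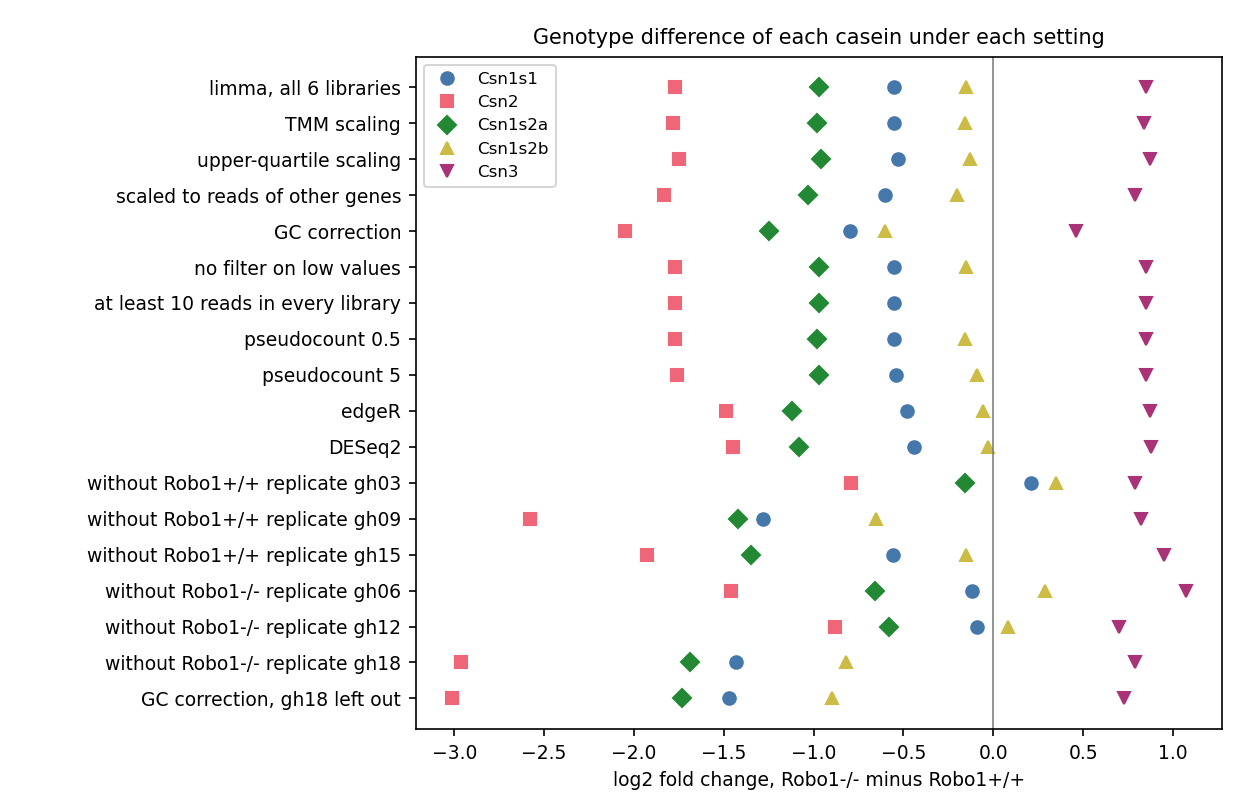
Log2 fold change (Robo1-/- minus Robo1+/+, horizontal axis) of each casein gene with limma on all 6 libraries and under each of 17 alternatives (rows). Csn3 lay between 0.46 and 1.07 throughout, Csn2 between -3.01 and -0.79, and Csn1s1 and Csn1s2b crossed 0 when single libraries were left out.

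Genes next to the cluster were near 0, and higher levels were found only among genes farther off. Of the 3 clusters numbered between Csn1s2b and Csn3, none passed the filter on low reads, and Odam, which encodes an enamel protein related to the caseins, had the most, with 13 reads in its highest library. Of the 10 clusters numbered before Csn1s1, 4 reached 10 reads in some library (Uba6, Tmprss11a, Ythdc1 and Ugt2b34). Ythdc1, which encodes a reader of methylated RNA, had the highest level of them, 865.0 normalized read counts per kb of transcript in Robo1+/+ and 1017 in Robo1-/-, against 1869 and 880.7 for Csn1s2a. Its start lies at -862.0 kb from that of Csn1s1. Sult1d1, the closest to Csn1s1, had at most 7 reads. Of the 10 numbered after Csn3, 6 reached 10 reads (Amtn, Utp3, Rufy3, Grsf1, Mobkl1a and Dck). Grsf1 was at 306.4 and 421.4 per kb and Utp3 at 340.2 and 409.9, and they start 993.2 and 888.3 kb from the start of Csn1s1. Of the 10 genes on both sides that reached 10 reads, 8 were tested. None of them had an unadjusted p under 0.05, a share near the 1.69% of all genes tested.

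**Figure D3:**
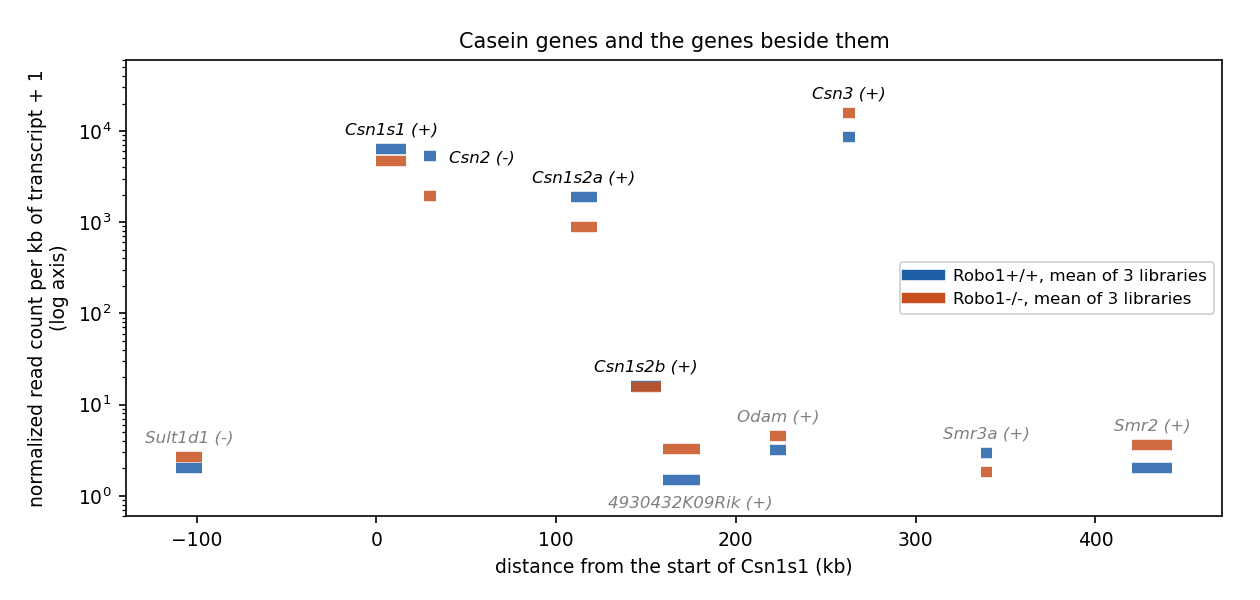
Mean normalized read count per kb of the first-numbered coding transcript, plus 1 (log axis), of the casein genes and adjacent genes against distance from the start of Csn1s1 (kb); blue bars are Robo1+/+ and orange bars Robo1-/- means of 3 libraries, drawn over each gene's extent, and signs give the strand. Csn1s1, Csn2, Csn1s2a and Csn3 were at 880.6 or above in both genotypes before 1 was added, Csn1s2b was at 15.08 and 14.74, and the 5 genes within the plotted stretch that are not caseins were below 4 by the same measure.

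The 4 calcium-sensitive genes varied together over the libraries, and Csn3 did not follow them. Of the 10 pairs of caseins, the 6 pairs among Csn1s1, Csn2, Csn1s2a and Csn1s2b had Pearson's r between 0.86 and 0.98 (n = 6 libraries of both genotypes, log2 values), and the 4 pairs with Csn3 had r between -0.46 and 0.05. Csn2 and Csn1s2a had the same order of libraries (Pearson's r = 0.96, exact permutation p = 0.0014, adjusted over 10 pairs 0.014; Spearman's rho = 1.0, exact permutation p = 0.0028, adjusted 0.028). That order, from the highest, was gh03, gh18, gh15, gh09, gh06 and gh12. For Csn1s1 and Csn2, r was 0.94 (exact permutation p = 0.0056, adjusted 0.023) and rho was 0.83 (exact permutation p = 0.058, adjusted 0.167). For Csn1s1 and Csn1s2a, r was 0.93 (exact permutation p = 0.0069, adjusted 0.023) and rho was 0.83 (exact permutation p = 0.058, adjusted 0.167).

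Csn1s2b followed the others in spite of its few reads. With Csn1s1 its r was 0.98 (exact permutation p = 0.014, adjusted 0.035; rho = 0.77, exact permutation p = 0.1, adjusted 0.167). With Csn2 and Csn1s2a its r was 0.86 and 0.87, which did not hold after adjustment (exact permutation p = 0.037 and 0.028, adjusted 0.062 and 0.056; rho = 0.77 for both, exact permutation p = 0.1, adjusted 0.167). Csn3 had r = -0.14 with Csn1s1, -0.46 with Csn2, -0.39 with Csn1s2a and 0.05 with Csn1s2b (exact permutation p = 0.77, 0.36, 0.45 and 0.92, adjusted 0.856, 0.514, 0.562 and 0.92). Its rho with the same genes was -0.26, -0.6, -0.6 and -0.03 (exact permutation p = 0.66, 0.24, 0.24 and 1.0, adjusted 0.733, 0.3, 0.3 and 1.0).

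Part of the shared movement rested on 2 libraries. With the 2 libraries farthest from the median left out, gh03 and gh18 in pairs led by Csn1s1 or Csn1s2a and gh03 and gh12 in pairs led by Csn2, r among the calcium-sensitive genes was 0.81 for Csn1s1 and Csn2, 0.64 for Csn1s1 and Csn1s2a, 0.92 for Csn1s1 and Csn1s2b, 0.94 for Csn2 and Csn1s2a, 0.96 for Csn2 and Csn1s2b and 0.44 for Csn1s2a and Csn1s2b. With 4 libraries left, the exact permutation p was 0.042, the smallest they allow, for Csn2 with Csn1s2a and with Csn1s2b, and between 0.17 and 0.58 for the other 4 pairs. The r of Csn1s2a with Csn1s1 and Csn1s2b thus fell most, but 4 libraries are too few to show that no relation was left. With gh03 or gh18 alone left out, r was 0.91 and 0.93 with Csn1s1 and 0.87 and 0.9 with Csn1s2b. Within Robo1+/+ the 4 genes shared the order gh03, gh15 and gh09. Within Robo1-/-, gh18 was highest for all 4 genes, Csn1s1, Csn2 and Csn1s2a were lower in gh12 than in gh06, and Csn1s2b, at 7 and 4 reads, was not. After the GC correction, r among the calcium-sensitive genes was between 0.91 and 0.98, and r of Csn3 with them was between -0.85 and -0.6. For Csn3 with Csn2, at -0.85, the exact permutation p was 0.029, not adjusted over pairs. With Csn1s1, Csn1s2a and Csn1s2b it was 0.11, 0.082 and 0.21 by the same test.

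Beyond the caseins, the 10 tested genes most like the mean of the 5 casein genes, by Pearson's r of log2 values over the 6 libraries, were Ccl7 (r = 0.993), Med12l (0.987), Snrpa1 (0.987), Snrpd1 (0.986), Gjb2 (0.986), Lbh (0.985), Pop1 (0.984), Atp1b1 (0.981), Tarbp1 (0.98) and Shisa2 (0.98). They were picked for this likeness, so it carries no test, and 1.7% of 13687 genes (233) had an r of at least 0.9. Gjb2, which encodes the gap junction protein connexin 26, was at 1574, 327.6 and 547.8 in Robo1+/+ and 300.4, 230.8 and 1795 in Robo1-/-. Ccl7, a chemokine gene, was at 26.72, 7.05 and 10.32 and at 6.91, 6.41 and 23.35. Both were high in gh03 and gh18 and overlapped between genotypes, like the calcium-sensitive caseins. After the GC correction r was between 0.72 (Snrpd1) and 0.99 (Ccl7) for the 9 of these genes with a GC value. Tnfsf11, which encodes the RANK ligand of hormone-sensing luminal cells and was picked after its values were seen, was at 1660, 199.1 and 123.8 in Robo1+/+ and 108.2, 0.92 and 439.2 in Robo1-/-. It too was highest in gh03 and gh18, and its part in the casein levels was not tested. The summed level of 9 basal markers was between 807.3 and 2257 in Robo1+/+, highest in gh03, and between 1004 and 1680 in Robo1-/-. That of 7 leukocyte markers was between 15.58 and 24.17 in all libraries, with Ptprc, Cd79a, Laptm5, Tyrobp and Coro1a at no more than 3 reads in any.

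**Figure D4:**
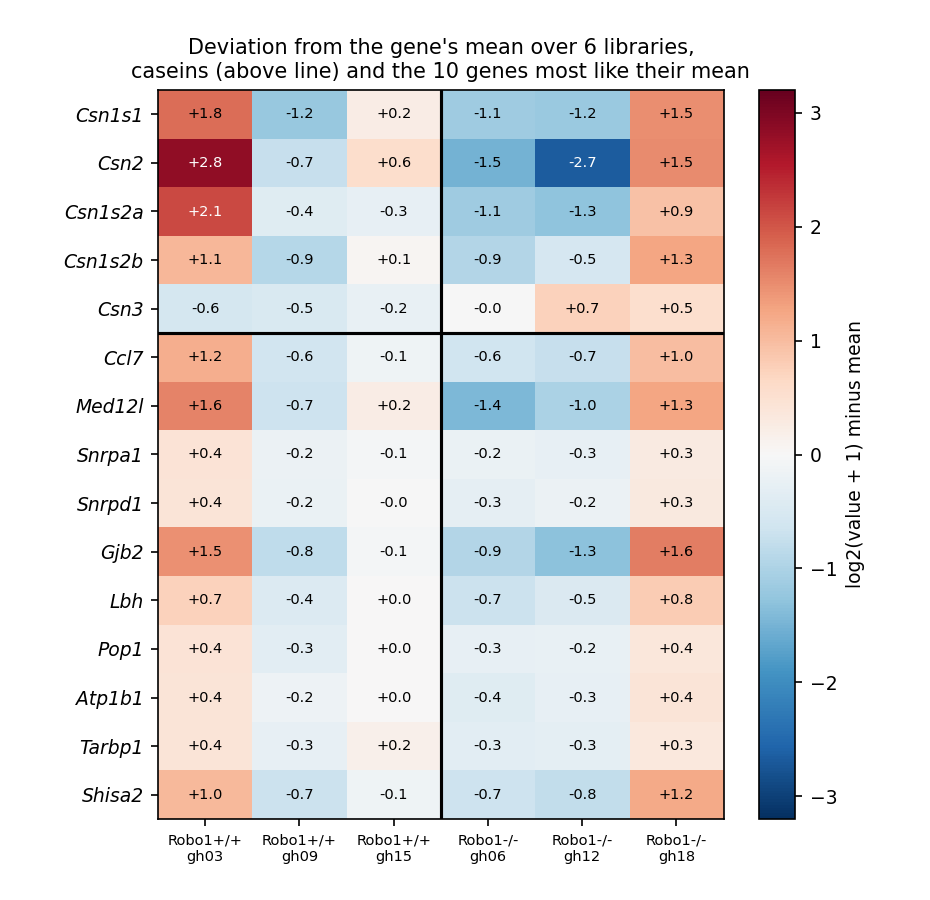
Deviation of log2(value + 1) from the gene's own mean over the 6 libraries (colour and printed numbers) for the 5 casein genes (above the line) and the 10 genes most like their mean (below), with Robo1+/+ libraries left of the vertical line. The 4 calcium-sensitive caseins were above their mean in gh03 and gh18. Csn3 was below its mean in all Robo1+/+ libraries, close to it in gh06 and above it in gh12 and gh18.

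Ratios within a library remove the scaling of the libraries, and 10 ratios between caseins were compared. The ratio of Csn1s1 to Csn2 was 1.33, 2.03 and 2.22 in gh03, gh09 and gh15 and 3.6, 7.75 and 2.74 in gh06, gh12 and gh18. Csn2 was thus lower relative to Csn1s1 in each Robo1-/- library than in any Robo1+/+ library. The log2 ratio was 0.86 ± 0.39 in Robo1+/+ and 2.09 ± 0.78 in Robo1-/- (mean ± SD, n = 3), a difference of 1.22 (two-sided exact permutation p = 0.1, the smallest that 3 against 3 libraries allow; adjusted over 10 pairs 0.429). The ratio of 0.124% of all other tested genes to Csn1s1 did not overlap between genotypes (17 of 13691), and that of 0.482% to Csn2 did not (66 of 13691). Only 1.77% and 1.25% of genes outside the caseins had r of at least 0.9 with Csn1s1 and Csn2. These shares are thus an unlike background for a pair that varies together. Of the 10 casein pairs, 1 was apart, and of all single genes tested 9.41% were without overlap. The count of pairs is thus near that share and is no result about the caseins. The difference in the log2 ratio of Csn1s1 to Csn2 was 1.25 after the GC correction, still without overlap. It was between 0.79 and 1.54 with single libraries left out, lowest without gh12.

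The other 9 ratios overlapped between genotypes. Csn1s1 to Csn1s2a was the steadiest together with Csn1s1 to Csn1s2b, with ranges of 1.35 and 1.34 on the log2 scale over the 6 libraries. The ratio of Csn1s1 to Csn1s2a was 4.84, 3.5 and 8.62 in Robo1+/+ and 6.09, 6.58 and 8.92 in Robo1-/-, a log2 difference of 0.43 (two-sided exact permutation p = 0.4, adjusted 0.444). The widest range was that of Csn2 to Csn3, 6.8 on the log2 scale. Csn2 exceeded Csn3 in gh03 (ratio 1.77), whereas in the other libraries the ratio was 0.14 and 0.29 (gh09 and gh15) and 0.0594, 0.0159 and 0.327 (gh06, gh12 and gh18). Its log2 difference between genotypes was -2.62, against SDs of 1.88 and 2.19 (two-sided exact permutation p = 0.3, adjusted 0.429). All 4 ratios of a calcium-sensitive casein to Csn3 were lower on average in Robo1-/-, by -1.4 (Csn1s1), -2.62 (Csn2), -1.83 (Csn1s2a) and -1.0 (Csn1s2b) on the log2 scale, and Robo1+/+ and Robo1-/- libraries overlapped in all 4 (exact two-sided permutation p = 0.4 for Csn1s1 and 0.3 for the others).

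**Figure D5:**
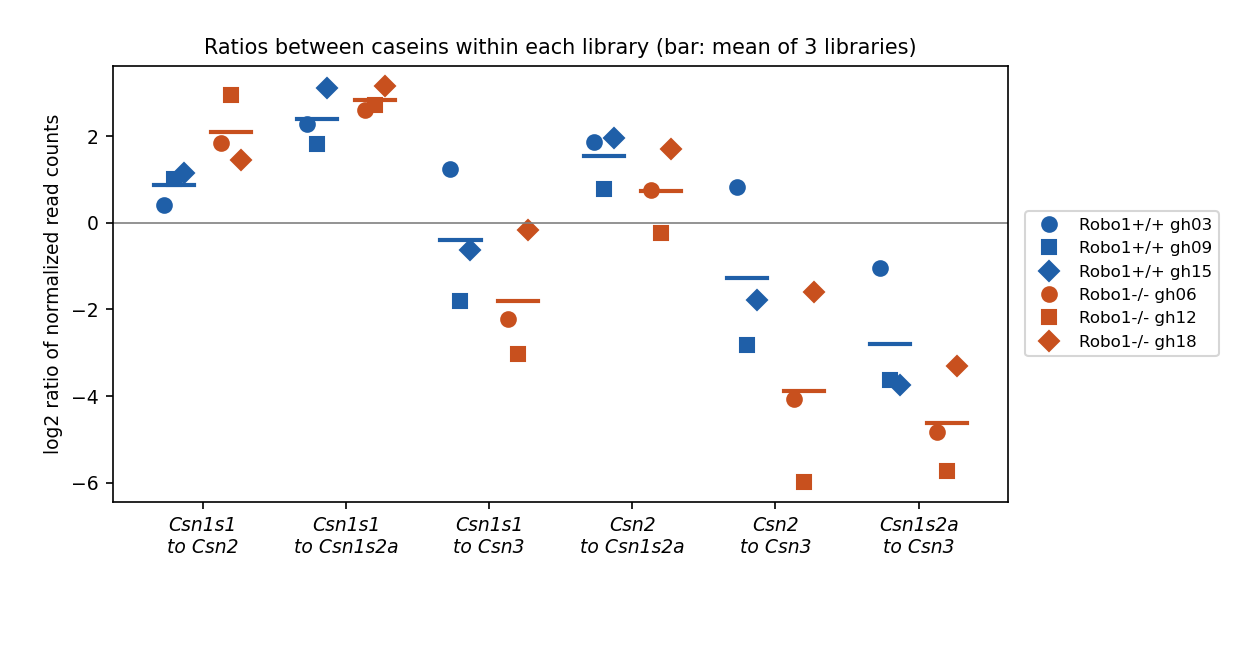
Log2 ratio of normalized read counts between pairs of Csn1s1, Csn2, Csn1s2a and Csn3 (horizontal axis) in each library, Robo1+/+ in blue and Robo1-/- in orange, with marker shapes for libraries and bars for means of 3. Of these pairs, only Csn1s1 to Csn2 was apart between genotypes, at most 1.15 in Robo1+/+ and at least 1.45 in Robo1-/-.

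Milk genes outside the cluster were read from the same fit. Of 25 listed, 20 were tested, 1 was higher and 0 were lower in Robo1-/- at an unadjusted p under 0.05 (1.69% of all genes tested had one), and the median log2 fold change was -0.02, against 0.0 over all genes tested. The higher gene was Lalba, which encodes alpha-lactalbumin, the cofactor of lactose synthesis. It was at 1323, 1748 and 1367 in Robo1+/+ and at 2568, 3119 and 2044 in Robo1-/-, higher in Robo1-/- without overlap as Csn3 was (log2 fold change 0.79, SE 0.24, limma unadjusted p = 0.012, adjusted p = 0.86). The Lalba difference was 0.82 after the GC correction and 0.95 without gh18. Wap, the major whey protein gene of mouse milk, was low in all libraries, at 20.36, 8.62 and 12.2 in Robo1+/+ and 5.75, 12.82 and 4.38 in Robo1-/-. Glycam1, named after its values were seen like Wap, did not pass the filter, with values of 15.27, 1.57 and 4.69 and of 1.15, 0 and 7.3.

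Of 34 listed regulators of casein genes, all were tested, 3 were lower and 1 was higher at an unadjusted p under 0.05, against 1.69% of all genes tested in either direction, with a median log2 fold change of 0.18. The lower genes included Cish and Socs1, feedback inhibitors that STAT5 signalling induces. Cish was at 1165, 1513 and 1600 in Robo1+/+ and at 955.2, 829.0 and 210.1 in Robo1-/- (log2 fold change -1.36, limma unadjusted p = 0.047, adjusted p = 0.86). Without gh18, in which it was lowest, its log2 fold change was -0.67 (limma unadjusted p = 0.0094), and after the GC correction -0.86 (limma unadjusted p = 0.007). Socs1 was at 22.9, 35.27 and 20.64 against 16.11, 4.58 and 5.84 (log2 fold change -1.61, limma unadjusted p = 0.021), but its log2 fold change after the GC correction was -0.48 (limma unadjusted p = 0.54). Esrrb, an orphan nuclear receptor gene, was at 318.1, 131.7 and 84.43 against 67.9, 13.74 and 39.4 (log2 fold change -2.15, limma unadjusted p = 0.019). After the GC correction its log2 fold change was -1.81 (limma unadjusted p = 0.048). The paper had already named Esrrb as lower in these Robo1-/- cells. Its place in the list, and so the counts of the list, were not independent of these data. Pgr, the progesterone receptor gene, was higher, at 1721, 3003 and 3394 against 5481, 4124 and 3752 (log2 fold change 0.76, limma unadjusted p = 0.044). After the GC correction the log2 fold change of Pgr was 1.23 (limma unadjusted p = 0.0082). Each of these 4 genes was without overlap between genotypes, with an adjusted p of 0.86. In all, 9 of the 34 regulators were without overlap, against 9.41% of all genes tested.

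Of 22 listed genes of casein phosphorylation, calcium supply and secretion, 21 were tested and 1 was lower at an unadjusted p under 0.05, against 1.69% of all genes tested in either direction. It was Fam20c, which encodes the Golgi kinase that phosphorylates secreted caseins, at 332.1, 89.35 and 98.5 in Robo1+/+ and at 44.89, 25.65 and 64.2 in Robo1-/- (log2 fold change -1.74, SE 0.61, limma unadjusted p = 0.024, adjusted p = 0.86). Fam20c was highest in gh03 and lowest in gh12, as Csn2 was, and its log2 fold change after the GC correction was -0.73 (limma unadjusted p = 0.5). The list's median log2 fold change was -0.03. Of 19 listed members of the secretory calcium-binding phosphoprotein family and its SPARC relatives outside the caseins, 3 were tested and none had an unadjusted p under 0.05. Spp1, which encodes osteopontin, was at 1454, 6222 and 8081 against 7225, 23668 and 13688 (log2 fold change 1.67, SE 0.71, limma unadjusted p = 0.052), with an overlap of gh15 and gh06. The log2 fold change was -0.18 for Sparc and 0.39 for Sparcl1 (limma unadjusted p = 0.8 and 0.6), and the median of the 3 was 0.39.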

How the data were processed

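Sorted luminal progenitor cells gave 6 poly(A)+ RNA libraries. Per the paper's methods, reads were trimmed to 75 bases, repeats were removed with bowtie2, and the rest was mapped to NCBI37/mm9 with TopHat. The paper names DESeq2 for the normalization, whereas the deposited values are labelled as DESeq counts. The counting tool, its use of strand and its treatment of reads with several locations are not given in the sources used here. The deposited table holds a normalized signal for each known-gene cluster, that is, read counts divided by 1 size factor per library. Dividing each value by the value of 1 read gave whole reads for 100% of the values (tolerance 0.006 plus rounding), and 0 columns belonged to no sample of the series. Counting error is all that the intervals and the limit of 3 reads cover, because PCR copies of a molecule were not told apart by molecular identifiers.

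Genotypes were compared on log2(value + 1) with limma (version 3.58.1, R 4.3.3; empirical Bayes trend, Benjamini-Hochberg adjustment over 13692 genes kept by filterByExpr of edgeR, version 4.0.16). This scale understates changes of low genes. DESeq2 (version 1.42.0) and edgeR on the whole reads, TMM, upper-quartile and non-casein scaling, a lowess GC correction, other filters and pseudocounts, and each library left out were alternatives. The scripts were tested on simulated data. Gene lists and members were chosen with earlier results of these data known. Of each list, members with an unadjusted p under 0.05 were named (5 at most), or else the 3 with the highest mean; the 10 genes most like the caseins were taken by Pearson r. Coordinates, transcript lengths and GC content are those of GENCODE M1 (NCBI37).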

Additional observations from a re-analysis of the deposited data

How the results depend on the processing

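Casein log2 fold changes kept their direction in 80 of 84 alternatives, and no casein passed an adjusted p of 0.05 in any. The direction turned with single libraries left out for Csn1s1 (range -1.43 to 0.21) and Csn1s2b (-0.82 to 0.35), and the cause was not tested; Csn2 ranged from -2.96 to -0.79, Csn1s2a from -1.69 to -0.16 and Csn3 from 0.70 to 1.07. The 10 ratios kept their direction in all 90 alternatives. Genes with an adjusted p under 0.05 numbered 0 with limma and 1 with DESeq2. Genes with an unadjusted p under 0.05 numbered 231, against 415 with no filter on low values (more genes were tested), 566 with the GC correction and gh18 left out, and 117 to 903 with single libraries left out. Correlations of Csn3 with the other caseins changed sign: with Csn1s1 the range was -0.54 to 0.27 with single libraries left out, with Csn1s2a -0.69 to 0.03 and with Csn1s2b -0.39 to 0.44; with Csn1s2b r was -0.6 after the GC correction, and with Csn2 it was 0.6 without the 2 farthest libraries. The 6 pairs among the other caseins ranged from 0.80 to 0.99 with single libraries left out and from 0.44 to 0.96 without the 2 farthest libraries. Leaving out the 10 most abundant other clusters put the casein share of reads between 0.0927% and 0.339%. Csn1s2b had no value with at least 10 reads in every library. No paired analysis was run, because the genotypes share no replicate number and the sources used here do not state which libraries belong together. An effect of litter or collection round was not tested. The 3 libraries per genotype, of which gh03 and gh18 carry most of the casein variation, limit what can be told from the calcium-sensitive genes; Csn1s2b also has few reads.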
